A study of Sus scrofa with 17 samples.

Results

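The comparison set kidneys that received extracellular vesicles (EVs) during both machine perfusions beside kidneys that received none. G3, with EVs in hypothermic (HMP) and in normothermic machine perfusion (NMP), held 6 kidneys, and G1, which was given the PBS-1X vehicle at both times, held 5, so that 11 of the 17 kidneys of the series were used. The other 6 belong to G2, which had EVs in HMP and not in NMP. The EVs (pUPC-EVs) were particles shed in culture by progenitor cells grown out of pig urine. All 11 kidneys came from Dutch Landrace pigs, labelled as wild-type females aged 6 months to 1 year, and each was 1 kidney of its own animal. Each had 32 min of warm ischemia, then 24 h of HMP in the cold, then 5 h of NMP at body temperature with blood cells of the same pig in the solution, and was biopsied when NMP ended. There was no kidney without ischemia or perfusion and none with EVs in NMP alone, so that all levels below are those of perfused kidneys.

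The genes followed fall into 4 groups. Antiviral genes are those that cells switch on after interferons bind their receptors or after foreign or misplaced RNA and DNA is sensed. Their products cut or bind viral RNA, hold particles at the membrane, tag proteins with ISG15 and prepare peptides for display to T cells. Endothelial genes mark the lining of blood vessels, which in the kidney covers the glomerular tuft and the capillaries around the tubules. Metabolic genes serve the tubule, which burns fatty acids for most of its energy and also breaks down branched-chain amino acids and makes glucose. Clock genes form the loop in which CLOCK and BMAL1 activate the PER and CRY repressors and the output factors DBP, TEF and HLF, and glucocorticoids can reset this loop in the kidney.

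A property of the animals ran along with the groups and bears on every result. Although every pig was labelled female, transcripts of the Y-linked translation factor EIF1AY were present in 5 of the 6 G3 kidneys and in 1 of the 5 G1 kidneys. EIF1AY had 560, 534, 0, 589, 461 and 403 reads in G3 kidneys 1 to 6 and 0, 0, 1, 4 and 481 reads in G1 kidneys 1 to 5. KDM5D, a Y-linked histone demethylase, had 90, 19, 0, 25, 55 and 9 reads in G3 and 0, 0, 0, 1 and 74 in G1. G3 kidney 3 was therefore the G3 kidney without these transcripts and G1 kidney 5 the G1 kidney with them. In G2, 1 of 6 kidneys had them. Treatment and this property could largely not be told apart. The 4 lists and most genes described from them are therefore given again from a fit with the property as a covariate and as the difference inside each subset of the kidneys, which sets the 5 G3 kidneys with Y-linked transcripts against G1 kidney 5, and G3 kidney 3 against G1 kidneys 1 to 4. The sample codes also ran in 3 series whose meaning is not stated, of which the first and the second each held 2 G1 kidneys and 1 G3 kidney, and the last held 1 G1 and 4 G3 kidneys.

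G3 kidney 3, the G3 kidney without Y-linked transcripts, was at the end of the kidneys' order on several lists, and the 4 lists and most genes described are given with and without it. Over all genes it was not the kidney farthest from G1. Of genes with a mean CPM of at least 1 it had 17.3% above and 12.6% below every G1 kidney, where G3 kidney 6 had 21.0% and 24.2%, the highest shares of the 6. The 12.6% was the lowest share below of the 6, while G3 kidneys 1 and 5 had lower shares above (15.9% and 14.6%). G3 kidney 6 also had the fewest genes detected (18968) and the lowest TMM size factor (0.852) of the 11. Without G3 kidney 6, 48 antiviral members were higher (median 0.591), 8 endothelial members higher and 1 lower (0.0447), 2 metabolic members higher and 3 lower (0.0636), and 1 clock member higher and 1 lower (-0.0272), by the unadjusted test described below. Read totals ran from 19270046 to 24736473 per kidney, and G3 kidney 3 had the highest. Values below are CPM, read counts scaled to a common library total with TMM size factors, and fold changes are log2 of G3 over G1 with the standard error (SE) of the fit. The median log2 fold change over all 25719 genes tested was -0.0212.

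Across all genes, only 2 changed at an adjusted p under 0.05 (edgeR's quasi-likelihood test with Benjamini-Hochberg adjustment), which is 0.00778% of the 25719 genes tested, and both fell. DESeq2 called 31 genes, or 0.121% of the same 25719, counting also any that its own filter set aside. Without adjustment, 498 genes (1.94%) were higher and 718 (2.79%) lower at a p under 0.05, and 869 (3.38%) had both such a p and a fold over 1.5 in either direction. Among the 13751 genes with a mean CPM of at least 1, which is the level of most list members, 2.49% were higher and 2.09% lower. Every G3 kidney lay above every G1 kidney for 33 genes (0.128%), and below for 51 (0.198%). Without G3 kidney 3, 2.4% of genes were higher and 3.08% lower, and with the Y-linked covariate 1.59% were higher and 2.09% lower, at an unadjusted p under 0.05. These shares are the background against which each list is read. "Higher" and "lower" in the counts below mean an unadjusted p under 0.05 in edgeR, and a gene that "passed" met the same limit.

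The antiviral list stood farthest from that background. Of its 84 members tested, 49 were higher in G3 (58.3%), none was lower and 35 were neither, and 76 had a fold change above 0. The 4 lists hold genes that the study itself listed from these libraries, so that no count is independent of its choice. The median log2 fold change was 0.634. None of the 84 had an adjusted p under 0.05 in edgeR, while DESeq2 called 12 with and 7 without G3 kidney 3. In edgeR BST2 had an adjusted p under 0.05 when G1 kidney 2 or G3 kidney 1 was left out, and between 0.00411 and 0.33 over all fits that left out 1 kidney. By role, all 9 restriction factors tested were higher, with a median of 1.18, as were all 7 genes of ISG15 conjugation, with a median of 1.04. Among the RNA and DNA sensors and RNA-directed effectors 15 of 19 were higher, with a median of 0.754. Of the signalling genes 6 of 15 were higher, of the other interferon-induced genes 7 of 14, of the antigen presentation genes 3 of 13, and of the interferons and chemokines 2 of 7.

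**Figure D1:**
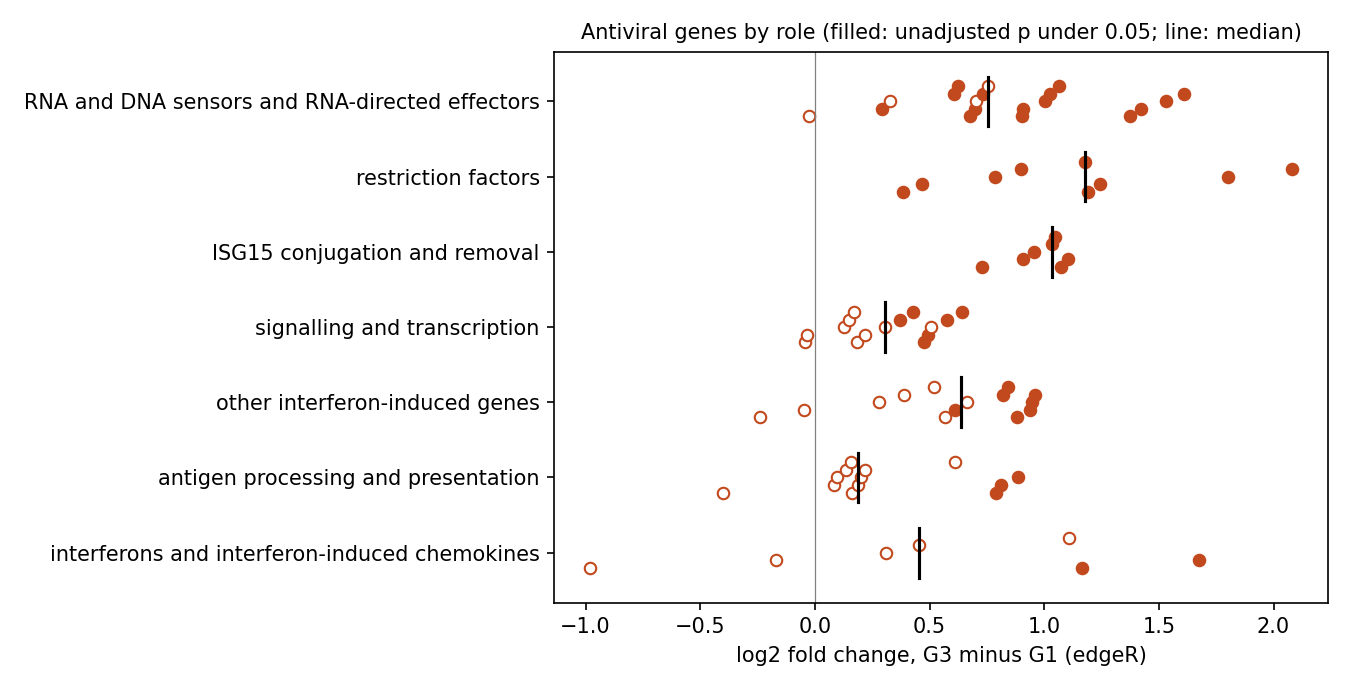
Log2 fold change of G3 over G1 for each antiviral gene tested, by role, with all 11 kidneys. Filled points mark an unadjusted p under 0.05. All 9 restriction factors and all 7 genes of ISG15 conjugation are filled and lie above 0, while 3 of 13 antigen presentation genes are filled.

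Among the restriction factors, BST2, or tetherin, which holds budding virus particles at the cell surface, had the smallest p of the list. It lies on chromosome 2 at 60305306 to 60308295 (RefSeq, Sscrofa11.1). Its CPM was 1.76, 4.49, 2.81, 2.46 and 2.39 in G1 kidneys 1 to 5 and 4.08, 9.54, 16.8, 8.81, 14.6 and 16.9 in G3 kidneys 1 to 6. All G3 kidneys but kidney 1 were above every G1 kidney, and G3 kidney 1 was just under G1 kidney 2. The log2 fold change was 2.08 (SE 0.33, exact permutation p = 0.00866, edgeR Benjamini-Hochberg adjusted p = 0.0721). It was 1.95 without G3 kidney 3, 2.36 with the Y-linked covariate, 1.98 among the kidneys with Y-linked transcripts and 2.59 among those without.

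MX1, a GTPase that traps viral nucleocapsids, was at 81.8, 91.3, 124, 157 and 189.7 CPM in G1 and at 225, 205, 413, 166, 311 and 444 in G3. All G3 kidneys but kidney 4 lay above every G1 kidney, and G3 kidney 4 lay below G1 kidney 5. Its log2 fold change was 1.19 (SE 0.27, exact permutation p = 0.00866). RSAD2, or viperin, which makes a chain-ending nucleotide that stops viral RNA synthesis, ran from 15.3 to 82.3 CPM in G1 and from 77.5 to 316.5 in G3, with a log2 fold change of 1.80 (SE 0.41). CMPK2, its neighbour in function, which supplies the nucleotide that RSAD2 converts, was at 12.5, 18.3, 26.9, 32.9 and 34.2 CPM in G1 and at 47.8, 40.4, 82.5, 37.0, 53.4 and 93.2 in G3. For CMPK2 no G1 kidney reached the G3 range (log2 fold change 1.24, SE 0.27, exact permutation p = 0.00433, the smallest this design allows). XAF1, an interferon-induced gene that promotes cell death, showed the same separation, with 2.98, 3.61, 8, 6.03 and 7.67 CPM in G1 and 13.9, 9.93, 16.2, 10.6, 10.1 and 16.2 in G3 (log2 fold change 1.18, SE 0.25). PLSCR1, a phospholipid scramblase that amplifies the interferon response, also did not overlap, but the groups nearly met: the highest G1 kidney was at 60.96 CPM and the lowest G3 kidney at 61.3 (log2 fold change 0.39, SE 0.13). The log2 fold change without G3 kidney 3 was 1.07 for MX1, 1.65 for RSAD2, 1.12 for CMPK2, 1.1 for XAF1 and 0.30 for PLSCR1. The Y-linked covariate put it at 1.17, 1.75, 1.26, 1.15 and 0.44, in the same order, and each was higher there too. The subsets differed, with 0.42, 0.67, 0.59, 0.63 and 0.08 among kidneys with Y-linked transcripts and 1.91, 2.89, 1.96, 1.74 and 0.82 among those without.

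ISG15, the small ubiquitin-like protein that is joined to other proteins after interferon, was at 205, 152, 270.1, 334 and 246 CPM in G1 and at 409, 388, 599.9, 279.6, 408 and 723 in G3. The 5 G3 kidneys other than kidney 4 were above every G1 kidney, and kidney 4 was inside the G1 range. The log2 fold change was 0.95 (SE 0.23, exact permutation p = 0.00866). The enzymes that attach it were higher as well. HERC5, the main ligase, ran from 25.5 to 50.6 CPM in G1 and from 43.3 to 108.3 in G3 (log2 fold change 1.04, SE 0.23), and UBE2L6, the conjugating enzyme, from 11.6 to 28.4 and from 27.4 to 76.2 (1.07, SE 0.27). TRIM25, a ligase that also switches on the RNA sensor RIGI, did not overlap between the groups, with G1 at 44.8 to 75.4 CPM and G3 at 83.0 to 145.1 (0.73, SE 0.17). USP18, which strips ISG15 off and damps interferon signalling, was higher too (1.05, SE 0.29). These genes were at 0.87 for ISG15, 0.89 for HERC5, 1.01 for UBE2L6, 0.62 for TRIM25 and 0.94 for USP18 without G3 kidney 3, and at 1.077, 1.06, 1.04, 0.84 and 1.11 with the Y-linked covariate. In the kidneys with Y-linked transcripts the differences were 0.77, 0.32, 0.54, 0.48 and 0.58, against 1.38, 1.79, 1.53, 1.23 and 1.73 in those without.

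Of the sensors, RIGI was at 30.9, 43.5, 72.4, 91.4 and 89.3 CPM in G1 and at 81.2, 95.0, 236, 84.4, 133 and 156 in G3. Only G3 kidneys 2, 3, 5 and 6 exceeded the highest G1 kidney, and the log2 fold change was 1.00 (SE 0.30, exact permutation p = 0.0346). IFIH1, or MDA5, which senses long double-stranded RNA, had a log2 fold change of 0.73 (SE 0.22). DDX60, a helicase that assists RIGI, was at 5.40, 3.33, 6.88, 6.18 and 10.6 CPM in G1 and at 12.5, 9.15, 39.2, 11.9, 22.8 and 16.97 in G3, with its highest value in G3 kidney 3. Its log2 fold change was 1.53 (SE 0.35). IFIT3, part of the complex that binds foreign 5' RNA ends, separated the groups fully, with 42.5, 39.0, 58.5, 76.5 and 72.4 CPM in G1 and 114, 78.6, 343, 89.2, 162 and 272 in G3 (1.61, SE 0.34, exact permutation p = 0.00433). OAS1, which activates the RNA-cutting enzyme RNase L, was the weakest of the sensors named, at 0.61 (SE 0.22, exact permutation p = 0.0519), with its lowest value, 25 CPM, in G1 kidney 5. Leaving out G3 kidney 3 gave 0.75 for RIGI, 0.66 for IFIH1, 1.18 for DDX60, 1.31 for IFIT3 and 0.47 for OAS1, and the covariate gave 1.12, 0.68, 1.64, 1.80 and 1.20. Of these, OAS1 was the gene whose difference was larger among kidneys with Y-linked transcripts (1.38) than among those without (1.01), while the other 4 were at 0.25, 0.15, 0.39 and 0.83 and at 2.11, 1.25, 2.88 and 2.71.

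The factors that carry the interferon signal had a median log2 fold change of 0.306. IFNAR2, the binding chain of the type I interferon receptor, was at 25.6, 30.4, 28.8, 29.9 and 27.1 CPM in G1 and at 35.2, 39.1, 36.9, 33.6, 34.5 and 41.3 in G3. The 2 groups did not overlap, although the log2 fold change was only 0.37 (SE 0.10, exact permutation p = 0.00433). SP110, an interferon-induced nuclear body protein, was also separated, with G1 at 11.3 to 13.0 CPM and G3 at 16.7 to 20.9 (0.50, SE 0.12, DESeq2 adjusted p = 0.00392). IRF9 and STAT2, parts of the complex that binds interferon-response promoters, had log2 fold changes of 0.43 (SE 0.13) and 0.47 (SE 0.17, exact permutation p = 0.0606). IRF7, the master factor of interferon-alpha genes, was at 39.8, 38.3, 40.6, 43.4 and 64.1 CPM in G1 and at 72.6, 42.9, 98.6, 38.4, 66.1 and 85.8 in G3. G1 kidney 5 was above 2 of the G3 kidneys, and the log2 fold change was 0.58 (SE 0.22, exact permutation p = 0.0823). When G3 kidney 3 was left out the values were 0.37 for IFNAR2, 0.44 for SP110, 0.42 for IRF9, 0.33 for STAT2 and 0.44 for IRF7. They were 0.40, 0.57, 0.33, 0.59 and 0.59 with the covariate, where IRF9 no longer passed. IRF7 was at -0.13 among kidneys with Y-linked transcripts and at 1.28 among those without, and the other 4 were at 0.43, 0.39, 0.10 and 0.09 and at 0.36, 0.75, 0.55 and 1.098.

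In antigen presentation the 3 higher genes were neighbours in 1 chain of events. TAP2, 1 chain of the pump that carries peptides into the endoplasmic reticulum, was at 23.8, 16.5, 25.4, 18.1 and 24.2 CPM in G1 and at 38.8, 28.5, 47.0, 31.0, 35.7 and 43.3 in G3. No G3 kidney was as low as any G1 kidney (0.79, SE 0.16, exact permutation p = 0.00433, edgeR adjusted p = 0.291). TAP1, the other chain of the pump, was higher by 0.81 (SE 0.22), and PSMB8, a subunit of the immunoproteasome that cuts the peptides, by 0.89 (SE 0.20). Beside these, the trimming peptidase ERAP1 had a log2 fold change of -0.40 (SE 0.31, exact permutation p = 0.277). It was the antiviral member lower without G3 kidney 3 (-0.68, exact permutation p = 0.103). Among the chemokines that draw T cells, CXCL10 was at 34.3, 21.3, 44.8, 47.6 and 71.2 CPM in G1 and at 73.4, 43.4, 214, 38.0, 72.4 and 148 in G3. Its log2 fold change was 1.16 (SE 0.39, exact permutation p = 0.0866) and 0.77 without G3 kidney 3. CXCL11 was at 7.07, 2.04, 5.72, 2.76 and 8.34 in G1 and at 7.76, 8.91, 55.0, 4.43, 11.2 and 12.1 in G3. For both, G3 kidney 3 was the highest of the 11 kidneys, and the log2 fold change of CXCL11 was 1.68 (SE 0.55, exact permutation p = 0.0606) with it and 0.77 without it. Among kidneys with Y-linked transcripts CXCL10 and CXCL11 were at -0.10 and 0.01, and among those without at 2.60 and 3.79, with 1.27 and 1.85 in the covariate fit.

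IFI44, one of the interferon-induced genes used to score interferon activity, was at 26.6, 32.5, 35.9, 35.2 and 49.7 CPM in G1 and at 68.1, 50.8, 95.8, 45.1, 77.7 and 82.4 in G3, where kidney 4 alone lay inside the G1 range (0.96, SE 0.19, DESeq2 adjusted p = 0.00979). TAP2, TAP1, PSMB8 and IFI44 were at 0.71, 0.73, 0.76 and 0.85 without G3 kidney 3 and at 0.85, 0.84, 1.04 and 0.96 with the Y-linked covariate. Their differences were 0.53, 0.38, 0.66 and 0.34 among kidneys with Y-linked transcripts and 1.19, 1.27, 1.40 and 1.56 among those without.

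The G3 kidneys were not alike for these genes. The median deviation of the 84 members from their mean over the 11 kidneys was -0.459, -0.536, -0.25, -0.211 and 0.0164 in G1 kidneys 1 to 5 and 0.241, -0.0416, 0.776, -0.121, 0.411 and 0.587 in G3 kidneys 1 to 6, on the log2 scale. G3 kidneys 2 and 4 were below G1 kidney 5 on this measure and the other 4 G3 kidneys above it. The number of members above every G1 kidney was 49, 27, 63, 18, 62 and 61 of 84 in G3 kidneys 1 to 6. In G3 kidney 4 that is 21.4%, where 19.6% of all genes with a mean CPM of at least 1 lay above every G1 kidney, and in G3 kidney 3 it is 75.0%, where 17.3% did. G3 kidney 3 was the highest of the 11 kidneys for the antiviral list and the lowest for the endothelial list.

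**Figure D2:**
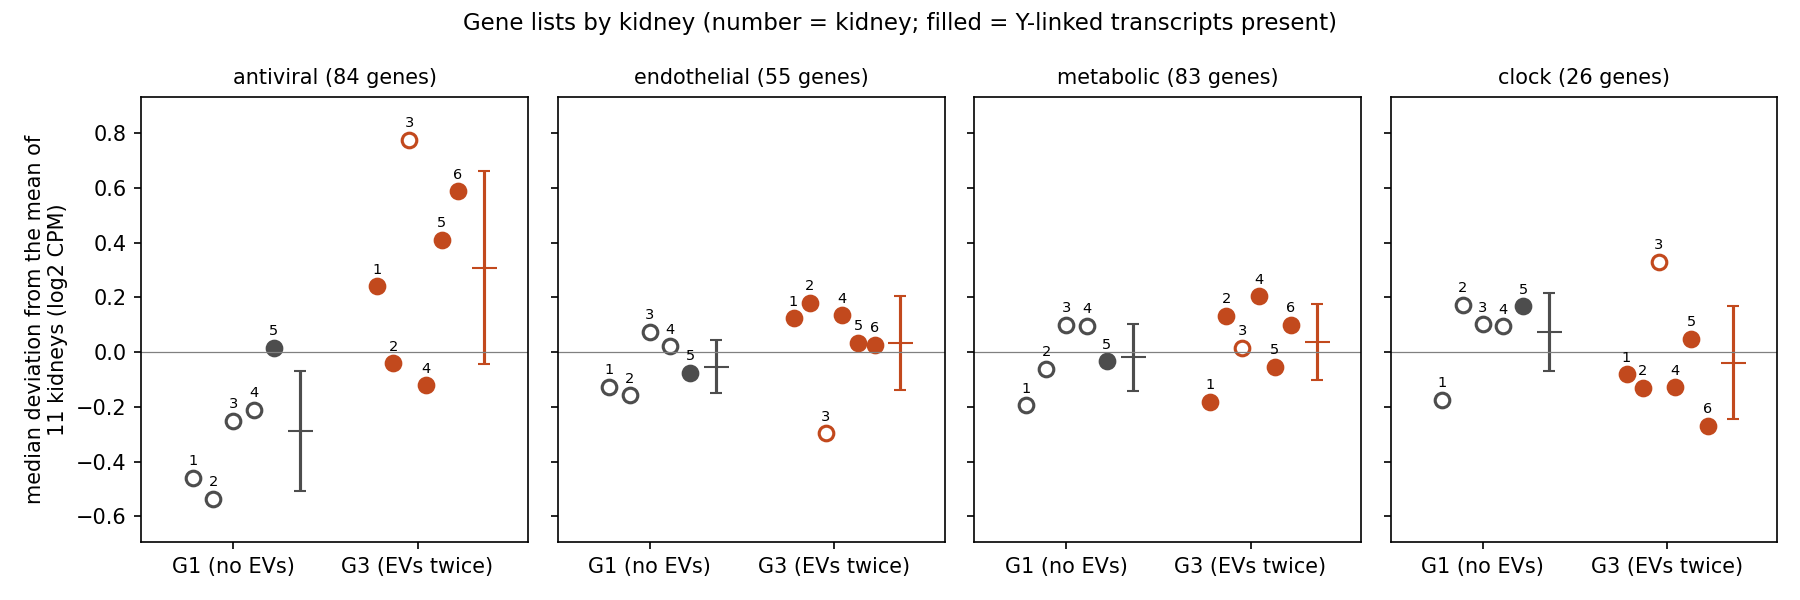
Median deviation of each list's members from their mean over the 11 kidneys, in log2 units, for each G1 and each G3 kidney. G3 kidney 3 is the highest of all kidneys for the antiviral list (0.776) and the clock list (0.33) and the lowest for the endothelial list (-0.296).

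Without G3 kidney 3, 45 antiviral members were higher and 1 lower, with a median of 0.542. With the Y-linked covariate 48 were higher and none lower, with a median of 0.62, and with the code series 42 were higher and 1 lower, with a median of 0.502. The size of the difference was not even between the subsets. Among the kidneys without Y-linked transcripts, where G3 kidney 3 stands alone against 4 G1 kidneys, 77 of 84 members were above 0 with a median of 1.18. Among those with them, where 5 G3 kidneys stand against G1 kidney 5 alone, 57 were above 0 with a median of 0.184. G1 kidney 5 had the highest list median of the G1 kidneys (0.0164, where the others were at -0.536 to -0.211). It was not the highest G1 kidney for every member, since ISG15, IFIT3 and RIGI were higher in G1 kidney 4 and OAS1 was at its lowest in G1 kidney 5. Within the 3 code series the median was 0.847, 0.139 and 0.37.

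Blood cells were in the NMP solution, and interferon-induced genes are also active in leukocytes. None of 17 leukocyte markers tested was higher or lower by edgeR (unadjusted), and their median log2 fold change was 0.0278, while 1 was lower with the Y-linked covariate. Their summed level ran from 113.6 to 161.5 CPM in G1 and from 136.9 to 161.4 in G3. Of the 6 red cell and platelet markers none was higher or lower either, but 5 had a fold change below 0 and the median was -0.667, at low levels with sums of 5.12 to 14.1 CPM in G1 and 4.26 to 11.7 in G3. In a biopsy, more cells of a type and more RNA per cell cannot be told apart, and this holds for each list below.

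The endothelial list showed a weaker pattern that depended on G3 kidney 3. Of 55 members tested, 6 were higher (10.9%) and 1 lower (1.82%), and the median log2 fold change was 0.106. Without G3 kidney 3, 13 were higher and 1 lower, with a median of 0.147. The higher members were DIPK2B, SELP, ERG, TCF4, ANGPT2 and PECAM1, and the lower member was CD34. No member had an adjusted p under 0.05 in edgeR with all kidneys, and DESeq2 called 1 with and 3 without G3 kidney 3. With the code series in the edgeR fit the adjusted p of DIPK2B was 0.0448.

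DIPK2B, a secreted kinase-family protein made by endothelium, was at 1.67, 0.972, 1.6, 1.31 and 1.29 CPM in G1 and at 4.08, 6.54, 1.87, 4.06, 3.03 and 3.6 in G3. All G3 kidneys lay above all G1 kidneys, with G3 kidney 3 nearest to them. The log2 fold change was 1.49 (SE 0.30, exact permutation p = 0.00433, edgeR adjusted p = 0.291, DESeq2 adjusted p = 0.00204). ERG, the ETS factor that maintains endothelial identity, was at 21.4, 19.1, 21.5, 20.2 and 19.2 CPM in G1 and at 30.9, 31.8, 21.3, 27.8, 24.9 and 31.0 in G3. The 5 other G3 kidneys were above every G1 kidney, while G3 kidney 3 lay inside the G1 range (0.46, SE 0.12, exact permutation p = 0.0130). TCF4, a helix-loop-helix factor active in endothelium, was also inside the G1 range in G3 kidney 3 and above it in the other G3 kidneys. It was at 24.9, 26.4, 26.4, 21.4 and 25 CPM in G1 and at 35.9, 48.1, 23.4, 41.7, 35.4 and 29.0 in G3 (0.52, SE 0.16, exact permutation p = 0.0260).

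**Figure D3:**
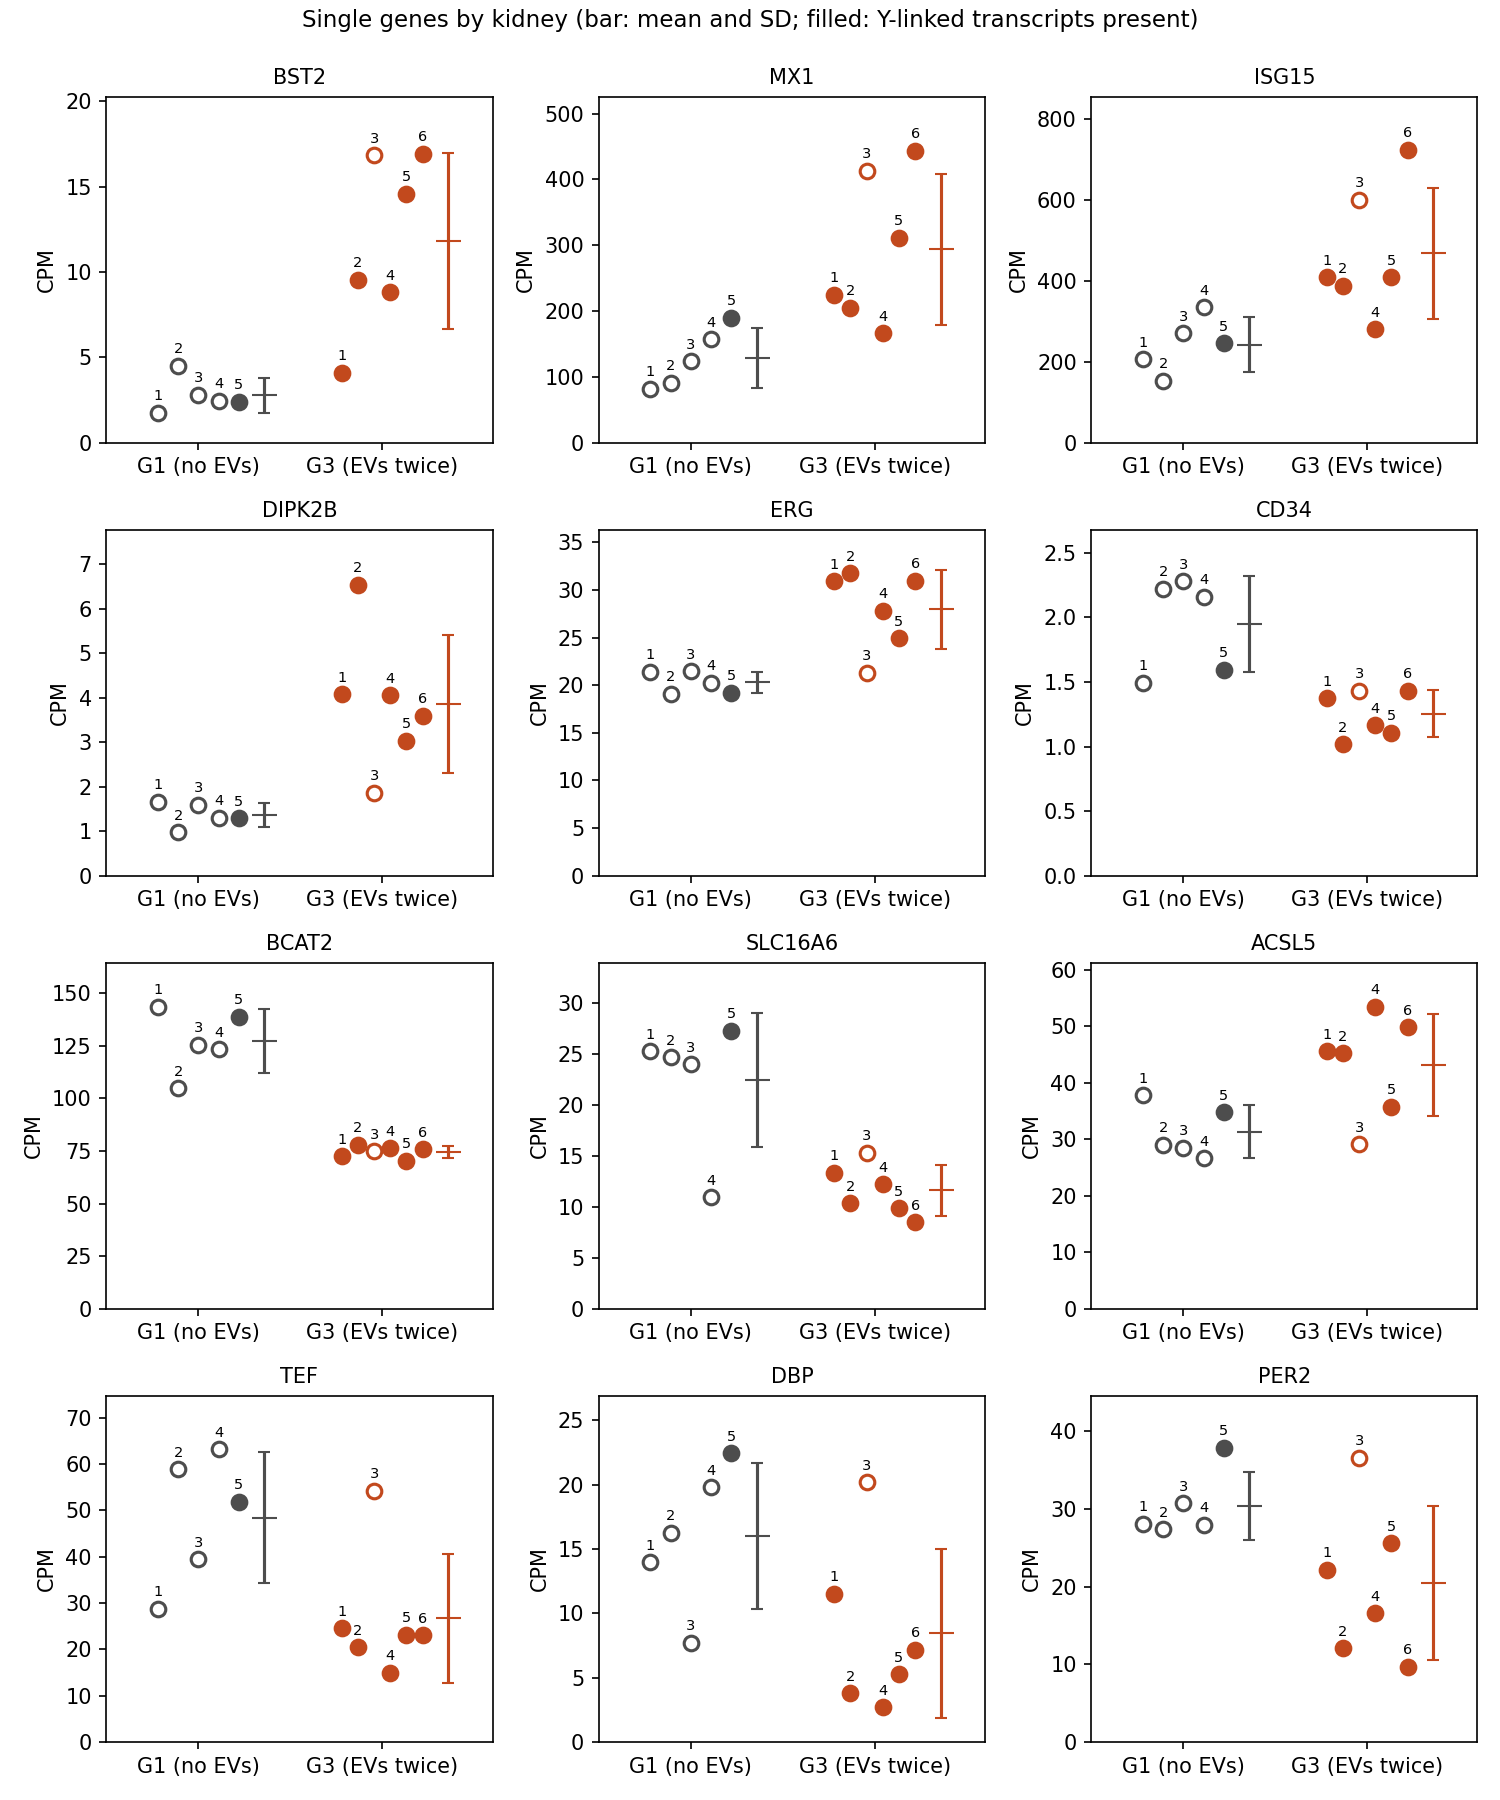
CPM of 12 genes in each kidney of G1 and G3, with bars for the mean and SD. Filled points are kidneys with Y-linked transcripts. BCAT2 shows all 6 G3 kidneys (70.2 to 77.9) below all 5 G1 kidneys, while for ERG, TEF, DBP and PER2 the open G3 point, kidney 3, lies within or above the G1 range.

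PECAM1, the adhesion molecule CD31 at endothelial junctions, was at 93.6, 93.2, 94.2, 87.1 and 99.0 CPM in G1 and at 134, 139, 84.6, 131, 90.8 and 117 in G3. G3 kidneys 1, 2, 4 and 6 were above every G1 kidney and G3 kidney 3 was below every one (0.31, SE 0.14, exact permutation p = 0.0866). SELP, or P-selectin, which endothelium and platelets use to slow leukocytes, was at 18.6, 15.4, 18.1, 24.6 and 34.4 CPM in G1 and at 20.8, 56.9, 38.5, 45.9, 47.0 and 49.9 in G3 (0.96, SE 0.23, exact permutation p = 0.0173). Here G3 kidney 3 was above every G1 kidney and G3 kidney 1 was within their range. ANGPT2, the angiopoietin released by activated endothelium, ran from 3.57 to 8.82 CPM in G1 and from 4.69 to 14.4 in G3, with G1 kidney 1 above 5 of the G3 kidneys (0.74, SE 0.29, exact permutation p = 0.0606). CD34, a sialomucin of capillary endothelium, went the other way, at 1.49, 2.22, 2.28, 2.16 and 1.596 CPM in G1 and at 1.37, 1.02, 1.43, 1.17, 1.11 and 1.43 in G3. Every G3 kidney was below every G1 kidney, at low levels (-0.63, SE 0.25, exact permutation p = 0.00433). The 7 called members were at 1.64 for DIPK2B, 0.99 for SELP, 0.53 for ERG, 0.62 for TCF4, 0.86 for ANGPT2, 0.39 for PECAM1 and -0.67 for CD34 without G3 kidney 3. In the covariate fit DIPK2B (1.077) and SELP (0.68) still passed, SELP in 11 but not in all 17 kidneys, while ERG, TCF4, ANGPT2, PECAM1 and CD34 did not (0.34, 0.27, 0.39, 0.10 and -0.45). Among kidneys with Y-linked transcripts the differences were 1.61, 0.28, 0.60, 0.58, 0.79, 0.29 and -0.38, in the order of the 7 above. Among those without they were 0.44, 1.02, 0.05, -0.08, 0.04, -0.12 and -0.46, so that TCF4 and PECAM1 changed sign.

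Other well-known endothelial genes were not called with all kidneys. CDH5, or VE-cadherin, was at 158, 204, 144, 157 and 210.4 CPM in G1 and at 244, 213, 127, 230.3, 204 and 215 in G3, where G3 kidney 3 was the lowest of the 11 (0.23, SE 0.16). KDR, the main VEGF receptor, was at 393, 379, 489, 475 and 430.5 in G1 and at 457, 588, 306, 567, 564 and 587 in G3, again lowest in G3 kidney 3 (0.24, SE 0.16). Without that kidney CDH5 was at 0.34 and KDR at 0.35 (exact permutation p = 0.0238 and 0.0238), and with the Y-linked covariate the sign of both turned, to -0.15 for CDH5 and -0.06 for KDR. S1PR1, the sphingosine phosphate receptor that keeps vessels tight, had 0.28 (SE 0.15) with all kidneys and 0.36 without G3 kidney 3, and 0.10 with the covariate. The adhesion molecules that inflamed endothelium displays did not go with SELP. ICAM1 had a log2 fold change of -0.29 (SE 0.19, exact permutation p = 0.299) and VCAM1 of -0.34 (SE 0.19, exact permutation p = 0.169). The flow-induced factors KLF2 and KLF4 were at -0.27 (SE 0.16) and -0.31 (SE 0.19) and also did not pass. These 4 were at -0.27, -0.27, -0.27 and -0.39 without G3 kidney 3, and with the covariate at -0.33, -0.57, -0.17 and -0.29, where VCAM1 was lower.

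SOX7, an endothelial SRY-box factor, is not in the list counts because the tables used gave it no identifier, which was taken from the study's own naming of the gene from these libraries. It was at 25.2, 18.4, 18.5, 20.1 and 19.2 CPM in G1 and at 39.5, 35.0, 28.8, 50.8, 41.3 and 24.1 in G3, with 5 G3 kidneys above every G1 kidney and G3 kidney 6 under G1 kidney 1 (0.85, SE 0.17, DESeq2 adjusted p = 0.00598). IFITM1, a restriction factor matched and left out of the counts in the same way, was at 39.2, 39.9, 41.0, 46.9 and 46.2 CPM in G1 and at 73.9, 57.8, 41.8, 74.8, 69.5 and 104 in G3 (0.72, SE 0.17). G3 kidney 3 lay inside the G1 range for IFITM1, where it was above every G1 kidney for 63 of the 84 list members. SOX7 and IFITM1 were at 0.91 and 0.83 without G3 kidney 3 and at 0.74 and 0.36 with the Y-linked covariate, where IFITM1 did not pass. They were at 0.95 and 0.69 among kidneys with Y-linked transcripts, and at 0.495 and 0.0033 among those without.

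The kidneys' order on the endothelial list put G3 kidney 3 last. Its median deviation was -0.296, where the other G3 kidneys ran from 0.0259 to 0.18 and the G1 kidneys from -0.158 to 0.074. In G3 kidney 3, 5 of the 55 members were above every G1 kidney and 20 below every one, against 13 to 18 above and 2 to 7 below in the other 5 G3 kidneys. Over all genes with a mean CPM of at least 1, 17.3% were above every G1 kidney and 12.6% below in G3 kidney 3, and 14.6% to 21.0% above and 13.0% to 24.2% below in the others. The fibroblast and mural markers, another cell type of the vessel wall and the space around it, were also lowest of the 11 in G3 kidney 3. Their median deviation there was -0.512, against -0.288 to 0.362 in the other G3 kidneys and -0.324 to 0.359 in G1, and 5 of the 10 were below every G1 kidney. Their median was 0.141 among kidneys with Y-linked transcripts and -0.521 among those without. Their part in the endothelial result was not tested. With the Y-linked covariate 2 members were higher and 2 lower, and the median turned to -0.0719. The median was 0.163 among kidneys with Y-linked transcripts and -0.272 among those without. Within the 3 code series it was 0.292, 0.116 and 0.0547.

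In the metabolic list few members were called, in both directions, and the member with an adjusted p under 0.05 in edgeR, BCAT2, belongs to amino acid breakdown. Of 83 members tested, 5 were higher (6.02%) and 4 lower (4.82%), with a median log2 fold change of 0.0776. The lower members were BCAT2, SLC16A6, CYP2U1 and PDK1, and the higher ones ACSL5, ACAA2, HADHA, CYP4A21 and NR1H3. BCAT2, the mitochondrial aminotransferase that takes the first step of leucine, isoleucine and valine breakdown, fell. It lies on chromosome 6 at 54107682 to 54123595 (RefSeq, Sscrofa11.1). Its level was 143, 105, 125, 123 and 139 CPM in G1 kidneys 1 to 5 and 72.3, 77.9, 74.8, 76.3, 70.2 and 75.9 in G3 kidneys 1 to 6. The 6 G3 kidneys spanned 70.2 to 77.9 CPM and all lay under the lowest G1 kidney. The G1 mean was 127.1 ± 15.1 CPM (SD, n = 5 kidneys) and the G3 mean 74.6 ± 2.81 (SD, n = 6 kidneys).

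The log2 fold change of BCAT2 was -0.77 (SE 0.10, edgeR Benjamini-Hochberg adjusted p = 0.0229), and the DESeq2 adjusted p was 1.03e-10. G3 kidney 3 lay within the range of the other G3 kidneys here, and without it the fold change was -0.77 (edgeR adjusted p = 0.0350). The difference was -0.90 among kidneys with Y-linked transcripts and -0.72 among those without. With the covariate it was -0.81 (edgeR adjusted p = 0.107), and in a fit of all 3 groups -0.76 (edgeR adjusted p = 0.659). Leaving out G1 kidney 1 or 3, or G3 kidney 1, 2, 4 or 5, put the adjusted p between 0.0548 and 0.106 with a fold change of -0.78 to -0.72. Of the other 20 genes of branched-chain amino acid breakdown none was higher or lower in edgeR (unadjusted), among them the subunits of the branched-chain dehydrogenase and its kinase. The other gene that fell has no symbol in the tables used (ENSSSCG00000050204). It was at 4.30, 2.92, 2.67, 3.16 and 3.33 CPM in G1 and at 0.242, 0.242, 0.636, 0, 0.144 and 0.592 in G3, with all G3 kidneys below all G1 kidneys (-3.37, SE 0.47, edgeR adjusted p = 0.0229). Its adjusted p was 0.107 with the Y-linked covariate, 0.453 in the fit of all 3 groups, and 0.0548 to 0.106 without G1 kidney 1 or 3 or without G3 kidney 1, 2 or 5.

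Among transporters, SLC16A6, a monocarboxylate transporter that exports ketone bodies, was at 25.2, 24.7, 23.9, 10.9 and 27.3 CPM in G1 and at 13.3, 10.4, 15.3, 12.2, 9.87 and 8.48 in G3. G1 kidneys 1, 2, 3 and 5 were above every G3 kidney, and G1 kidney 4 lay inside the G3 range (-0.95, SE 0.21, DESeq2 adjusted p = 0.0212). CYP2U1, which hydroxylates long-chain fatty acids, was at 41.8, 35.8, 43.0, 44.3 and 42.1 CPM in G1 and at 32.3, 25.6, 37.2, 28.7, 29.2 and 22.1 in G3. The 5 other G3 kidneys were under every G1 kidney, and G3 kidney 3 was just above G1 kidney 2 (-0.50, SE 0.13, exact permutation p = 0.00866). PDK1, the kinase that switches off pyruvate dehydrogenase, was lower, with overlapping groups (-0.32, SE 0.14, exact permutation p = 0.0606). Its log2 fold change ran from -0.38 to -0.19 when 1 kidney was left out. The 3 were at -1.04 for SLC16A6, -0.58 for CYP2U1 and -0.34 for PDK1 without G3 kidney 3. With the covariate they were at -0.91, -0.38 and -0.22, and PDK1 no longer passed, as also with the code series in the fit. Without G1 kidney 4 the edgeR adjusted p of SLC16A6 was 0.0311. Their differences were -1.34, -0.62 and -0.20 among kidneys with Y-linked transcripts and -0.39, -0.14 and -0.22 among those without.

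The 3 higher genes of fatty acid use were ACSL5, ACAA2 and HADHA. ACSL5, which activates long-chain fatty acids, was at 37.8, 29.0, 28.5, 26.6 and 34.8 CPM in G1 and at 45.6, 45.2, 29.1, 53.5, 35.7 and 49.8 in G3. G3 kidneys 1, 2, 4 and 6 were above every G1 kidney (0.46, SE 0.15, exact permutation p = 0.0303). ACAA2 and HADHA, which carry out late steps of mitochondrial beta-oxidation, had 0.57 (SE 0.25) and 0.53 (SE 0.25), with an exact permutation p of 0.0952 and 0.0693. Both were at their lowest in G1 kidney 5, at 102 and 183 CPM, and both had overlapping groups. CYP4A21, a fatty acid hydroxylase, had a wide spread, at 3.25, 7.50, 0.679, 4.27 and 44.6 CPM in G1 and at 49.4, 149, 5.57, 174, 25.8 and 7.45 in G3. G1 kidney 5, at 44.6, was the one G1 kidney above 10 CPM, and G3 kidneys 3 and 6 were below 10. Its log2 fold change was 2.50 (SE 0.93, exact permutation p = 0.0736) and ran from 1.97 to 4.12 when 1 kidney was left out. It was 0.10 among kidneys with Y-linked transcripts and 0.90 among those without. NR1H3, the sterol sensor LXR-alpha, was higher by 0.26 (SE 0.11). The 5 higher members were at 0.55 for ACSL5, 0.68 for ACAA2, 0.57 for HADHA, 2.75 for CYP4A21 and 0.31 for NR1H3 without G3 kidney 3. In the fit with the covariate HADHA passed (0.93), while ACSL5, ACAA2, CYP4A21 and NR1H3 did not (0.17, 0.63, 0.70 and 0.17). ACSL5, ACAA2, HADHA and NR1H3 were at 0.39, 1.54, 1.67 and 0.35 among kidneys with Y-linked transcripts and at -0.05, -0.29, 0.20 and -0.02 among those without.

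CPT1A, PCK1 and TKFC did not pass edgeR's unadjusted test with all kidneys. CPT1A, the gate of mitochondrial fatty acid entry, was at 224, 227, 434, 283 and 128 CPM in G1 and at 247, 366, 275, 375, 251 and 343 in G3 (0.25, SE 0.23, exact permutation p = 0.294). It was higher (0.50) when the code series was in the fit. PCK1, the committing enzyme of glucose synthesis, was at 2046 to 4818 CPM in G1 and at 3277 to 5416 in G3 (0.30, SE 0.22, exact permutation p = 0.182). TKFC, which passes fructose carbon on to glycolysis, was at 193, 125, 153, 208 and 158 CPM in G1 and at 90.9, 116, 210.4, 125, 111 and 111 in G3. G3 kidneys 1, 2, 5 and 6 were below every G1 kidney and kidney 4 was level with the lowest of them, whereas G3 kidney 3 was above every one, so that the log2 fold change went from -0.39 with it to -0.59 without it (exact permutation p = 0.0909 and 0.00794, the smallest possible without that kidney). TKFC was lower with the code series in the fit (-0.52) and at -0.11 with the Y-linked covariate. For CPT1A and PCK1 leaving out G3 kidney 3 gave 0.29 and 0.35, and the Y-linked covariate 0.62 and 0.46.

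The number of metabolic members called moved with single kidneys. Without G3 kidney 3 it was 9 higher and 6 lower, with a median of 0.0635. Without G1 kidney 3 it was 14 higher, and without G1 kidney 5 or G3 kidney 6 it was 2 higher. With the Y-linked covariate 5 were higher and 3 lower. The median was 0.0928 among kidneys with Y-linked transcripts and -0.00717 among those without, and -0.0176, 0.0516 and 0.0456 within the code series. The list median per kidney ran from -0.194 to 0.0996 in G1 and from -0.182 to 0.203 in G3, so that the groups overlapped over most of their range.

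In the clock list 2 of 4 output factors and 1 of 8 repressors were lower, and G3 kidney 3 went the other way. On the list's median deviation it was the highest of the 11 kidneys (0.33), where the G1 kidneys ran from -0.174 to 0.172 and the other G3 kidneys from -0.269 to 0.049. Of 26 members tested, none was higher by edgeR (unadjusted p) and 3 were lower (11.5%), with a median of -0.0488. The 3 were TEF, DBP and PER2. Without G3 kidney 3, 1 was higher and 5 lower, and the median was -0.156. DESeq2 called none with it and 1 without it at an adjusted p under 0.05.

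TEF, an output factor of the PAR bZIP family, was at 28.7, 58.9, 39.5, 63.1 and 51.9 CPM in G1 and at 24.6, 20.4, 54.2, 15.0, 23.1 and 23.0 in G3. The 5 other G3 kidneys (15.0 to 24.6) were under every G1 kidney, and G3 kidney 3, at 54.2, was above 3 of them. Its log2 fold change was -0.86 (SE 0.27, exact permutation p = 0.0303) with all kidneys and -1.19 without G3 kidney 3 (exact permutation p = 0.00794, edgeR adjusted p = 0.0619). DBP, its close relative, was at 14.0, 16.2, 7.71, 19.8 and 22.4 CPM in G1 and at 11.5, 3.78, 20.2, 2.71, 5.25 and 7.15 in G3. G3 kidneys 2, 4, 5 and 6 were below every G1 kidney, and G3 kidney 3 was above 4 of them (-0.92, SE 0.40, exact permutation p = 0.0563, and -1.39 without G3 kidney 3). HLF, the other member of this family, was at -0.41 (SE 0.21, exact permutation p = 0.156). It was at -0.45 without G3 kidney 3 and ran from -0.52 to -0.21 when 1 kidney was left out. With the Y-linked covariate HLF was at -0.34 in 11 kidneys and at -0.11 in 17.

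PER2, a core repressor of the loop, was at 28.1, 27.4, 30.7, 27.9 and 37.9 CPM in G1 and at 22.2, 12.1, 36.6, 16.6, 25.6 and 9.67 in G3. All 5 other G3 kidneys were below every G1 kidney, and G3 kidney 3 was above 4 of the G1 kidneys (-0.57, SE 0.26, exact permutation p = 0.0606, and -0.82 without G3 kidney 3). PER1, the other PER gene of the list, was at 93.3, 114, 78.8, 83.5 and 184 CPM in G1 and at 142, 57.0, 294, 74.3, 145 and 34.7 in G3. G3 kidney 3 was the highest and G3 kidney 6 the lowest of the 11, and the log2 fold change of 0.17 (SE 0.40) turned to -0.29 without G3 kidney 3 and to -0.16 when the code series was put in the fit. PER3, identified like SOX7 and outside the list counts, was at 8.69, 10.3, 11.06, 10.6 and 12.6 CPM in G1 and at 6.59, 6.88, 16.1, 7.23, 7.41 and 5.97 in G3. Again the 5 other G3 kidneys were under every G1 kidney, and G3 kidney 3 was above every one (-0.34, SE 0.23, and -0.64 without it). DESeq2 did not call PER3 with all kidneys and did without G3 kidney 3 (DESeq2 adjusted p = 0.0109).

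The remaining core genes were not called with all kidneys. BMAL1 was at 0.25 (SE 0.17), CLOCK at 0.14 (SE 0.18) and CRY1 at 0.12 (SE 0.13), and the sign of CLOCK and of CRY1 turned when the code series was in the fit (-0.02 and -0.0035). CRY2 had -0.19 (SE 0.21) and NR1D1, or REV-ERB-alpha, which represses BMAL1, had -0.13 (SE 0.19). Both turned with the Y-linked covariate, to 0.09 and 0.01. NPAS2, the paralog of CLOCK, was the clock gene higher without G3 kidney 3 (0.38, exact permutation p = 0.00794, and 0.30 with it, exact permutation p = 0.0649).

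**Figure D4:**
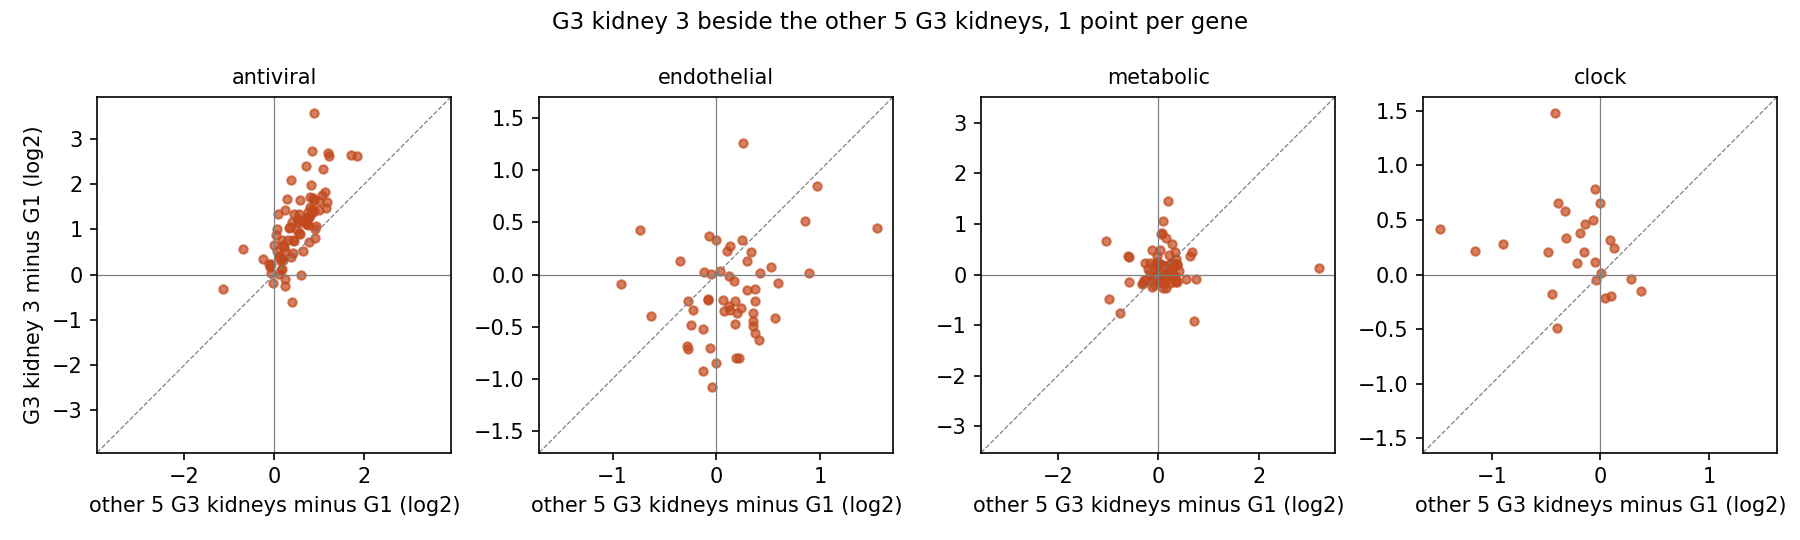
For each list member, the log2 difference of G3 kidney 3 from the G1 mean beside that of the other 5 G3 kidneys. The list medians are 1.06 and 0.531 for antiviral genes, -0.243 and 0.129 for endothelial genes, 0.0597 and 0.0699 for metabolic genes and 0.232 and -0.146 for clock genes.

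For the clock genes, G3 kidney 3 and the absence of Y-linked transcripts cannot be told apart. Among kidneys with Y-linked transcripts, TEF differed by -1.31, DBP by -2.04 and PER2 by -1.23. Among those without, where the G3 kidney is kidney 3, the differences were 0.26, 0.56 and 0.36. With the covariate in the fit 1 clock gene was lower, TEF (-0.57), and none higher, and over 17 kidneys TEF did not pass either. In the 11 kidneys the covariate put DBP at -0.73 and PER2 at -0.41, and the list median was 0.0159. PER3 was at -0.12 with the covariate. The median was -0.289 among kidneys with Y-linked transcripts and 0.329 among those without, and -0.0868, -0.225 and -0.191 within the code series. The hour of each biopsy is not given in the sources used here.

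**Figure D5:**
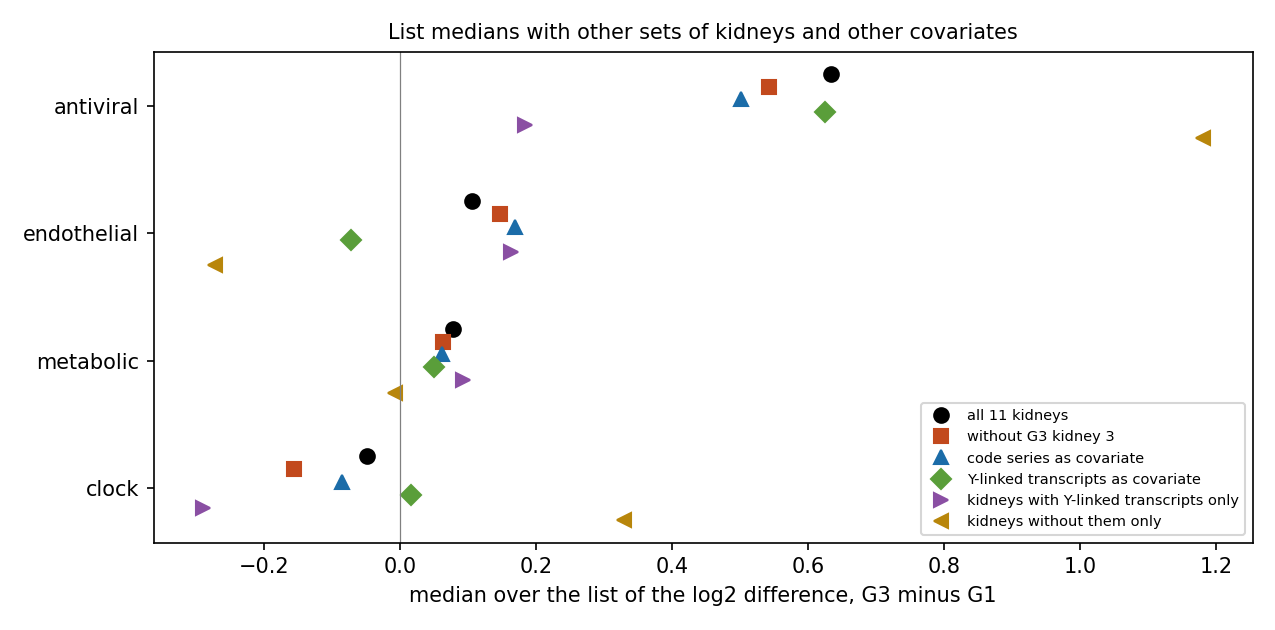
Median log2 fold change of the 4 lists with all 11 kidneys, without G3 kidney 3, with the code series or the Y-linked transcripts as a covariate, and as differences inside subsets of the kidneys. The antiviral median is above 0 in each of the 6 (0.184 to 1.18), while the endothelial, metabolic and clock medians lie on both sides of 0.

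Glucocorticoid-related and stress genes were also followed. Of 11 glucocorticoid-related genes, 3 were higher and none lower, and the median was 0.17, with 3 members below 0. FKBP5 was the one target among the 3 higher genes, which also held the receptor and an enzyme. The targets TSC22D3, ZBTB16, KLF9, SGK1, DUSP1, ERRFI1 and PER1 were not called. FKBP5, a chaperone strongly induced by glucocorticoids, was at 38.8, 43.5, 54.3, 39.6 and 41.0 CPM in G1 and at 44.9, 99.8, 44.0, 88.0, 70.1 and 42.1 in G3, with G3 kidneys 2, 4 and 5 above every G1 kidney (0.58, SE 0.21, exact permutation p = 0.0996). NR3C1, the receptor, was at 0.32 (SE 0.14, exact permutation p = 0.0606) and HSD11B1, which regenerates the active hormone, at 0.52 (SE 0.21, exact permutation p = 0.0519). Of 14 heat shock genes, 3 were lower and none higher, with a median of -0.236. BAG3, a co-chaperone, was at 442, 556, 990.0, 649 and 463 CPM in G1 and at 515, 348, 523, 353, 388 and 429 in G3 (-0.54, SE 0.19), and the groups overlapped. HSPH1 was at -0.48 (SE 0.19, exact permutation p = 0.108) and HSPA6 at -0.62 (SE 0.25, exact permutation p = 0.0519). These 6 genes were at 0.67 for FKBP5, 0.38 for NR3C1, 0.53 for HSD11B1, -0.61 for BAG3, -0.52 for HSPH1 and -0.73 for HSPA6 without G3 kidney 3. With the Y-linked covariate none of the 11 glucocorticoid and none of the 14 heat shock genes was higher or lower in edgeR (unadjusted), and the medians were 0.183 and -0.0486. With the covariate over all 17 kidneys 2 glucocorticoid genes were higher and the median was 0.302, while no heat shock gene was called (-0.0797). In the 11 kidneys the 6 were then at 0.38, 0.12, 0.50, -0.26, -0.30 and -0.47.

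Of 18 mesenchymal and TGF-beta family genes tested, 1 was higher and 4 lower. INHBB, an activin subunit, was at 14.1, 10.6, 16.6, 13.5 and 10.4 CPM in G1 and at 28.1, 25.2, 10.2, 26.1, 21.6 and 24.7 in G3. The 5 other G3 kidneys were above every G1 kidney and G3 kidney 3 was below every one (0.80, SE 0.21, and 0.95 without it). DESeq2 did not call INHBB with all kidneys and did without G3 kidney 3 (DESeq2 adjusted p = 7.79e-06). BMP3 was lower in all G3 kidneys than in any G1 kidney, at levels of 0.768 to 2.39 CPM (-0.98, SE 0.27). STMN1, which destabilises microtubules in dividing cells, was at -0.53 (SE 0.13), FSCN1, an actin-bundling protein, at -0.57 (SE 0.19) and BMP4 at -0.43 (SE 0.19, exact permutation p = 0.134). TWIST1, a mesenchymal factor identified like SOX7 and outside the counts, was at 2.55, 1.90, 3.54, 2.56 and 3.37 CPM in G1 and at 1.495, 1.06, 1.67, 1.63, 1.78 and 1.23 in G3. No G3 kidney reached the G1 range (-0.91, SE 0.25). Of 12 hypoxia genes, 1 was lower, ARNT2, a partner of HIF proteins, at 80.5, 60.9, 85.2, 80.9 and 88.4 CPM in G1 and at 58.9, 47.2, 57.9, 53.2, 57.0 and 63.7 in G3 (-0.49, SE 0.12). The Y-linked covariate gave 0.44 for INHBB, -1.16 for BMP3, -0.38 for STMN1, -0.51 for FSCN1, -0.45 for BMP4, -0.95 for TWIST1 and -0.54 for ARNT2, and INHBB, FSCN1 and BMP4 did not pass in that fit. The mesenchymal list still had 4 members lower there and none higher (median -0.245), namely BMP3, STMN1, FN1 and TGFB2. The genes other than INHBB were at -0.98, -0.58, -0.57, -0.52, -0.95 and -0.50 without G3 kidney 3, in that order. INHBB was at 1.26 among kidneys with Y-linked transcripts and at -0.41 among those without.

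Of 20 injury and inflammation genes, 3 were higher and none lower, with a median of -0.0226. CCL16, a chemokine of liver and kidney, was at 5.09, 13.3, 12.9, 16.8 and 5.54 CPM in G1 and at 17.9, 27.4, 3.78, 49.4, 36.0 and 22.1 in G3, where kidney 3 was the lowest of all 11 (1.28, SE 0.45, exact permutation p = 0.130, and 1.51 without it). TLR2, a receptor for bacterial lipoproteins, was at 0.47 (SE 0.20, exact permutation p = 0.0693) and SOCS5, a damper of cytokine signalling, at 0.32 (SE 0.14, exact permutation p = 0.0823). These 2 were at 0.52 and 0.39 without G3 kidney 3, and none of the 3 passed with the Y-linked covariate (0.45 for CCL16, 0.23 for TLR2 and 0.14 for SOCS5). CCL16 was at 2.35 among kidneys with Y-linked transcripts and at -1.52 among those without. Most kidney cell markers were not called with all kidneys. None of 10 proximal tubule, 5 thick ascending limb, 9 collecting duct or 10 fibroblast and mural markers was higher or lower in edgeR (unadjusted) with all kidneys. Without G3 kidney 3, 1 fibroblast and mural marker was higher and 1 lower, and their median difference from G1 was -0.53 in G3 kidney 3 and 0.168 in the other G3 kidneys. Of 4 distal convoluted tubule markers PVALB, a calcium-binding protein of that segment, was lower (-1.44, SE 0.37, with -1.54 without G3 kidney 3 and -1.04 with the Y-linked covariate). Of 4 podocyte markers 1 was lower with all kidneys and 1 higher without G3 kidney 3, and with the Y-linked covariate none was higher or lower in edgeR (unadjusted). With that covariate in 11 kidneys 1 proximal tubule, 1 collecting duct and 1 distal convoluted tubule marker were higher, and 1 thick ascending limb marker and PVALB lower. Over 17 kidneys the proximal tubule and thick ascending limb lists had 1 such member each and the others none by edgeR (unadjusted).

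Outside all lists, the 10 genes with a symbol and the smallest p included further interferon-related genes. SP140, a nuclear body protein related to SP110, was at 33.1, 28.7, 28.3, 30.7 and 36.0 CPM in G1 and at 43.9, 38.5, 50.9, 40.2, 42.5 and 44.6 in G3, with no overlap (0.47, SE 0.11). BATF2, an interferon-induced transcription factor, ran from 8.65 to 13.6 CPM in G1 and from 13.6 to 58.8 in G3 (1.41, SE 0.35). UPF3A, of the nonsense-mediated RNA decay pathway, was lower without overlap, at 22.8, 19.5, 21.6, 22.1 and 20.4 CPM in G1 and at 14.9, 11.6, 18.2, 13.1, 14.5 and 13.3 in G3 (-0.58, SE 0.13). NRIP3 did not overlap either (-0.72, SE 0.17). WSCD1 ran from 10.5 to 16.2 CPM in G1 and was at 32.9, 28.7, 11.06, 31.7, 28.7 and 20.9 in G3, where kidney 3 alone stayed in the G1 range (1.03, SE 0.23, and 1.19 without it). GC, the vitamin D binding protein, had 1.66 (SE 0.40) at levels under 4 CPM. ORC3, CAMK2N1 and RFFL were higher by 0.68, 0.61 and 0.50 (SE 0.17, 0.15 and 0.12), and EPHB3, an ephrin receptor, had -0.73 (SE 0.19). WSCD1 was at 0.58 with the Y-linked covariate, where it did not pass, and at 1.34 among kidneys with Y-linked transcripts and -0.20 among those without. The other 9 passed with the covariate in 11 kidneys, GC not in all 17 (0.48 for SP140, 1.597 for BATF2, -0.42 for UPF3A, -0.75 for NRIP3, 1.05 for GC, 0.70 for ORC3, 0.57 for CAMK2N1, 0.58 for RFFL and -0.77 for EPHB3). They were at 0.42, 1.23, -0.66, -0.75, 1.77, 0.66, 0.63, 0.45 and -0.71 without G3 kidney 3. The edgeR adjusted p of these 10 genes ran from 0.460 to 0.537 with all kidneys, and that of WSCD1 was 0.0162 without G3 kidney 3 and 0.0478 with the code series in the fit. DESeq2 with all kidneys called UPF3A, SP140, NRIP3, WSCD1, GC and BATF2 (adjusted p of 0.0102 to 0.0496) and not the rest. Without G3 kidney 3, SP140 and BATF2 lost that call (DESeq2 adjusted p = 0.0501 and 0.128).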

How the data were processed

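RNA of 17 kidney biopsies was sequenced after stranded mRNA library preparation. The authors trimmed adapters with cutadapt 4.0, aligned the reads with STAR to Sscrofa11.1 and deposited raw read counts per gene and kidney, with no normalization. The counting program, its strand setting and its treatment of reads that fit several genes are not given in the sources used here, so that counts of genes with near copies (MX1, IFIT3, PSMB8, HSPA6, CYP4A21) are uncertain. A deposited table of the authors' own comparison (fold changes and p-values) was not used.

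Groups were taken from the sample labels. The 6 G3 and 5 G1 kidneys were compared over the 25719 genes of 26560 with at least 1 read in them, with the quasi-likelihood test of edgeR 4.0.16 (R 4.3.3) on the deposited counts, TMM size factors and Benjamini-Hochberg adjustment over all genes, two-sided. DESeq2 1.42.0 was an alternative, with its default independent filtering by mean count left on. A gene set aside by that filter has no adjusted p and cannot be called. Single genes were also tested by an exact two-sided permutation test of mean log2 CPM (prior count 2) over all assignments of the kidneys, whose smallest p is 0.00433, or 0.00794 without G3 kidney 3. Symbols and positions came from the RefSeq gene table of Sscrofa11.1 and the gene name table, and 15005 of the genes tested had a symbol. Each p measures the spread between these kidneys, each from its own animal. No 2 kidneys of 1 group agreed within counting error (chi-square per degree of freedom 21.4 to 122.3 over 25 pairs), so that each was counted as a sample of its own. Read depth limits the genes at low levels.

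The lists and the comparison were chosen with earlier results of these data known, so their counts are descriptions. Named genes were those with an adjusted p under 0.05, up to 10 members with the smallest p under 0.05 in each of the 4 lists, a set of reference members (some not reported here), the 10 genes outside the lists with the smallest p, and members of a list a sentence is about. The edgeR and DESeq2 code was tested on simulated counts. EIF1AY with over 100 reads marked Y-linked transcripts as present. That covariate was added after seeing the data. No genome sequence was used, so no sequences are shown.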

Additional observations from a re-analysis of the deposited data

Results flagged for a closer look

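Within the 5 kidneys of G1 or the 6 of G3, 22 of 230 sets of values examined had a highest or lowest kidney far from the rest, where the gap to its nearest neighbour over the whole range passed Dixon's 95% limit. Chance gives about 1 in 20, or 11.5. No explanation was tested for any of them.

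G3 kidney 3 was such a kidney for CDH5 (gap over range 0.722, lowest), PER3 (0.783, highest), CRY2 (0.657, highest), INHBB (0.738, lowest) and SP110 (0.808, highest). It was also the far kidney for the median deviation of the endothelial list (0.676, lowest) and of the mesenchymal list (0.832, lowest). KLF2 stood apart in G3 kidney 1 (0.637, highest).

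In G1, kidney 1 stood apart for SOX7 (0.714, highest), CLOCK (0.77, lowest) and ORC3 (0.752, lowest), and for the medians of the clock list (0.774, lowest) and the proximal tubule markers (0.891, lowest). Kidney 2 did for CYP2U1 (0.723, lowest), ARNT2 (0.748, lowest) and the mesenchymal list (0.764, lowest), kidney 3 for S1PR1 (0.752, highest) and SP110 (0.798, lowest), and kidney 4 for TCF4 (0.717, lowest) and SLC16A6 (0.858, lowest). G1 kidney 5, the G1 kidney with Y-linked transcripts, stood apart for IRF7 (0.76, highest) and BMP3 (0.893, highest).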

How the results depend on the processing

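Of 1920 fits of the 96 named genes under other settings, 1907 kept the sign. With the code series as a covariate CLOCK turned to -0.0161, PER1 to -0.164 and CRY1 to -0.00348. With the Y-linked covariate (11 kidneys, then all 17 kidneys in 1 fit) CDH5 turned to -0.152 and -0.139, KDR to -0.0648 and -0.0848, CRY2 to 0.0878 and 0.194 and NR1D1 to 0.0146 and 0.128. PER1 ran from -0.289 (without G3 kidney 3) to 0.427 (without G1 kidney 5) when 1 kidney was left out and was -0.282 in DESeq2 without G3 kidney 3. At an unadjusted p under 0.05 in edgeR, CD34, PDK1, IRF7, STAT2, NR3C1, BAG3, HSPH1 and TLR2 lost their call with the code series, and CPT1A, PER3, TKFC, ERAP1, VCAM1 and KLF4 gained one. SELP, TEF, GC, STMN1 and PVALB passed with the Y-linked covariate in 11 kidneys and not in 17, and FSCN1, HSD11B1 and BMP4 in 17 and not in 11. The causes were not tested.

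The 2 genes with an adjusted p under 0.05 became 1 with edgeR's expression filter, 0 in a fit of all 3 groups, 11 with the code series, 31 in DESeq2, 40 in DESeq2 without G3 kidney 3, 1 with the Y-linked covariate, 0 with it over 17 kidneys, and 0 to 9 when 1 kidney was left out. The 9, without G1 kidney 5, include 6 genes whose reads follow the Y-linked transcripts. The 1216 genes with an unadjusted p under 0.05 became 671 with the expression filter and 957 to 1458 when 1 kidney was left out. The 869 that also had a fold over 1.5 became 319 with that filter, 542 in DESeq2 and 701 to 984 when 1 kidney was left out.

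Kidney numbers did not pair the groups (correlations of same-numbered kidneys 0.0182, 0.0163, 0.0474, 0.3 and -0.0649). With a replicate block 9 genes had an adjusted p under 0.05, among them BST2, DDX60 and TAP2 (0.0171, 0.0189 and 0.0221), and 513 a fold over 1.5 with an unadjusted p under 0.05. With the block 1 antiviral gene was lower, 3 endothelial genes lower, 10 metabolic genes higher and 8 lower, and 1 clock gene higher.

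Antiviral genes lower went from 0 to 1 with the code series, in DESeq2 without G3 kidney 3 and when some kidneys were left out (0 to 1), while 42 were higher with the code series (median 0.502), and 45 to 54 were higher and the median was 0.542 to 0.753 when 1 kidney was left out. Endothelial genes higher went from 6 to 14 in DESeq2 without G3 kidney 3 and to 2 with the Y-linked covariate in 11 and in 17 kidneys, and were 5 to 13 when 1 kidney was left out. Those lower went from 1 to 0 in the fit of all 3 groups, 2 with the code series, 2 and 0 with the Y-linked covariate, and 0 to 4 when 1 kidney was left out (4 without G1 kidney 1, 3 without G1 kidney 2). The endothelial median became -0.0719 and -0.0791 with the Y-linked covariate and was 0.0447 to 0.147 when 1 kidney was left out. Metabolic genes higher went from 5 to 3 in the fit of all 3 groups, 11 with the code series, 11 in DESeq2 without G3 kidney 3 and 2 to 14 when 1 kidney was left out, and those lower from 4 to 7 with the code series and 3 to 6, with a median of 0.0264 to 0.121. Clock genes higher went from 0 to 1 with RLE size factors, in DESeq2 without G3 kidney 3 and when some kidneys were left out (0 to 1). Those lower went from 3 to 1 with the expression filter, in the fit of all 3 groups and with the Y-linked covariate, to 0 with it over 17 kidneys, and to 1 to 5 when 1 kidney was left out, with a median of -0.156 to -0.0215.

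With 5 and 6 kidneys, 1 of each group on the other side of the Y-linked split, the covariate fits rest on few kidneys. Low genes (CD34, BMP3, TWIST1, GC, ENSSSCG00000050204) rest on few reads.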
